A study of Mus musculus with 10 samples.

Results

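The measurements describe Hdac3 and the subunits of its NCoR corepressor complex in whole mouse lungs at E18.5, late in gestation. Members were taken as the probe sets annotated to exactly 1 of the symbols Hdac3, Ncor1, Tbl1x, Tbl1xr1 and Gps2. Of these 5 symbols, 4 had such a probe set, each with 1, out of 17919 genes in the table; Ncor1 was not analysed here. Lungs of 5 embryos labelled Shhcre:Hdac3fl/fl, called Hdac3 KO below, were compared with lungs of 5 embryos labelled Shhcre control. Shh-Cre is a recombinase expressed from the Shh locus, which is active in lung epithelium, so Hdac3 was deleted in epithelial cells while the whole lung was profiled. All embryos had a mixed C57BL/6 and 129X1,129S6 background. Per the labels' protocols, dams were Hdac3 fl/fl and sires Hdac3 fl/+ ShhCre, and the control label does not give its Hdac3 alleles. A control that carries Shh-Cre from this cross would hold 1 floxed allele from its dam, deletable in its epithelium. Nothing in the labels says which embryos shared a litter.

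HDAC3 removes acetyl groups from histone tails and is nearly inactive alone. It becomes active when it binds the deacetylase-activating domain of a corepressor such as NCoR (Ncor1), with an inositol phosphate at the interface. TBL1X and TBLR1 (Tbl1xr1) are closely related WD40-repeat subunits that tether the complex to histones and take part in exchanging corepressors for coactivators, and GPS2 is a further core subunit. Unliganded nuclear receptors, Rev-erb proteins and other repressors bring the complex to their target genes.

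The table held log2 probe set levels, in which a difference of 1 is a doubling. Sample medians lay between 7.43 and 7.46 and correlations between lungs between 0.984 and 0.995. Xist, transcribed from the inactive X chromosome, and 3 measured Y-linked genes (Kdm5d, Eif2s3y and Uty) separated the lungs. Xist was high and the Y-linked genes low in Hdac3 KO 1 and control 1. Xist was low and the Y-linked genes high in 3 Hdac3 KO and 4 control lungs. Hdac3 KO 5 stood apart, with Xist at 4.96, Kdm5d at 5.18, Eif2s3y at 5.16 and Uty at 4.53, all in the low range. Along principal component 1, with 27.5% of the variance, every Hdac3 KO lung lay above every control lung. Along this component and component 2, with 23.1%, lungs numbered 4 and 5 lay below those numbered 1 to 3 within each group. No label names a batch. All 20 listed markers of lung epithelium had means above 6.30, the 20th percentile of all gene values.

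Hdac3 itself was lower in the Hdac3 KO lungs. Its log2 level was 10.57, 10.54, 10.61, 10.34 and 10.43 in Hdac3 KO lungs 1 to 5, against 10.80, 10.90, 10.80, 10.67 and 10.90 in control lungs 1 to 5. The highest Hdac3 KO lung (number 3) lay below the lowest control lung (number 4), so the groups did not overlap. The means were 10.50 ± 0.11 in Hdac3 KO lungs and 10.81 ± 0.10 in control lungs (SD, n = 5 each). Hdac3 fell by 0.31 ± 0.07 (SE) on the log2 scale, with a 95% interval of the log2 change from -0.46 to -0.17, which leaves 80.4% of the control level (limma, adjusted p = 0.0203; exact permutation p = 0.00794, two-sided, the smallest that 5 against 5 lungs allow). In whole lung, fewer Hdac3-expressing cells and less Hdac3 RNA per cell cannot be told apart, and unrecombined cells keep their Hdac3. The sources used here do not say whether the probe set reads the deleted part of the gene. The Hdac3 call was not kept when control 2 (adjusted p = 0.0526) or control 5 (0.0545) was left out or with a term for the sex classes (0.0556, a fit in which Hdac3 KO 5 forms a class of its own and adds nothing to the contrast).

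Across all 17919 genes, 559 were called at an adjusted p of 0.05, which is 3.12% of the table, with 1.54% higher and 1.58% lower in Hdac3 KO lungs. With the replicate number as a block, 846 genes were called (4.72%). A change of at least the size of that of Hdac3, in either direction, was seen in 3.40% of genes. Groups that do not overlap were seen for 5.11% of genes, 2.44% higher and 2.66% lower. An unadjusted limma p under 0.05 was found for 2428 genes (13.5%), and the plain two-sample test, which uses each gene's own variance, called 381 at an adjusted p of 0.05 (2.13%). The change was above 0 in 52.0% of genes and below 0 in 48.0%. The counts given for gene lists below are to be read beside these shares. Among the 4 measured members, 3 were called (Hdac3 lower, Tbl1x and Tbl1xr1 higher) and these same 3 had groups that did not overlap. The members were chosen with earlier results of these data known.

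**Figure D1:**
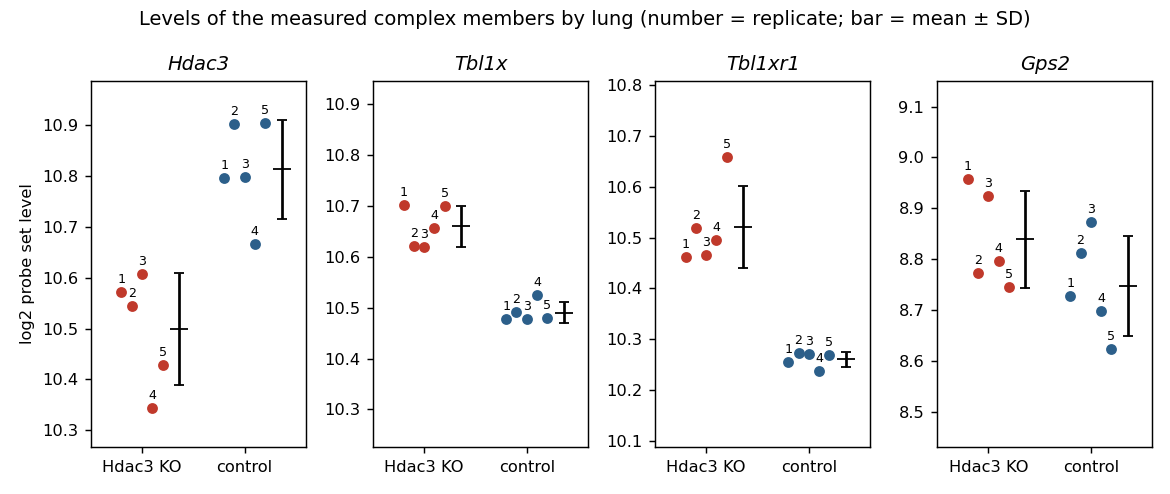
Log2 probe set level of each measured complex member (vertical axis, same span of 0.72 log2 units in each panel) in the 5 Hdac3 KO lungs (red, left) and the 5 control lungs (blue, right); numbers are replicate numbers, and the bar beside each group is the mean ± SD. Hdac3 KO lungs lie below all control lungs for Hdac3 and above them for Tbl1x and Tbl1xr1, and the groups overlap for Gps2.

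Tbl1xr1 rose in the Hdac3 KO lungs. Its log2 level was 10.46, 10.52, 10.47, 10.50 and 10.66 in Hdac3 KO lungs 1 to 5, against 10.25, 10.27, 10.27, 10.24 and 10.27 in control lungs 1 to 5. The control lungs lay within 0.034 log2 units of each other, while the Hdac3 KO lungs spanned 0.197, with number 5 at the top. The log2 change was 0.26 ± 0.05 (SE; 95% interval 0.16 to 0.36), or 120% of the control level (limma, adjusted p = 0.00973; exact permutation p = 0.00794, two-sided). Without Hdac3 KO 5, the lung with neither Xist nor Y-linked signal, the log2 change was 0.22 (adjusted p = 0.0103), in a fit that called 3.9% of genes. In the lungs with Y-linked signal alone (3 Hdac3 KO and 4 control) it was 0.23 (adjusted p = 0.0697), where 1.78% of genes were called.

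Tbl1x, the X-linked relative of Tbl1xr1, also rose, by a smaller amount. Its log2 level was 10.70, 10.62, 10.62, 10.66 and 10.70 in Hdac3 KO lungs 1 to 5, against 10.48, 10.49, 10.48, 10.53 and 10.48 in control lungs 1 to 5. The Hdac3 KO lung with high Xist (number 1) and the one with neither signal (number 5) were the highest, and the control lung with high Xist (number 1) lay within the range of the other controls. The log2 change was 0.17 ± 0.04 (SE; 95% interval 0.08 to 0.26), or 113% of the control level (limma, adjusted p = 0.0402; exact permutation p = 0.00794, two-sided). This call was near the threshold. It was lost with the replicate block (adjusted p = 0.0655) and on leaving out any 1 of the 10 lungs (adjusted p from 0.0627 to 0.101), with a log2 change between 0.16 and 0.18 in each of these 10 fits.

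Gps2, the small subunit that links the complex to several signalling pathways, was not called. Its log2 level was 8.96, 8.77, 8.92, 8.80 and 8.74 in Hdac3 KO lungs 1 to 5, against 8.73, 8.81, 8.87, 8.70 and 8.62 in control lungs 1 to 5. The groups overlapped over most of their range. The log2 change was 0.09 ± 0.06 (SE; limma, adjusted p = 0.597; exact permutation p = 0.159, two-sided). The 95% interval from -0.04 to 0.23 includes changes of the size seen for Tbl1x, so a like rise of Gps2 could not be told from none with these arrays. In the gene table Gps2 overlaps Eif5a, Tbl1x overlaps Gm52447 and Tbl1xr1 overlaps Gm5842, while Hdac3 overlaps no other gene. The sources used here do not say which bases the probes cover.

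Set side by side by replicate number, Hdac3 was lower in the Hdac3 KO lung in 5 of 5 pairs (differences from -0.47 to -0.19). Tbl1xr1 was higher in 5 of 5 (0.20 to 0.39), Tbl1x in 5 of 5 (0.13 to 0.23) and Gps2 in 4 of 5 (-0.04 to 0.23). The exact permutation test given with each member does not use these pairs. Turning signs within the 5 pairs, a test added after seeing the data, gave an exact permutation p of 0.0625 (two-sided, 32 assignments) for Hdac3, Tbl1x and Tbl1xr1 each, the smallest such a test allows, and of 0.125 for Gps2. The sizes differed between the sets of lungs that the second principal component separated. The Hdac3 change was -0.26 among numbers 1 to 3 and -0.40 among numbers 4 and 5, and the Tbl1xr1 change 0.22 and 0.32 in the same sets. The Tbl1x change was 0.17 and 0.18. With 3 against 3 or 2 against 2 lungs none of these was called, and the difference between the sets was not tested.

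The promoter windows of Tbl1x and Tbl1xr1, the 2 related subunits that rose, are shown. They run from 250 bases before to 50 after the RefSeq start (GRCm38.p6), with each CpG in capitals, and lie at chrX:77510977-77511276 (plus strand) for Tbl1x and chr3:22076402-22076701 (plus strand) for Tbl1xr1.
Tbl1x: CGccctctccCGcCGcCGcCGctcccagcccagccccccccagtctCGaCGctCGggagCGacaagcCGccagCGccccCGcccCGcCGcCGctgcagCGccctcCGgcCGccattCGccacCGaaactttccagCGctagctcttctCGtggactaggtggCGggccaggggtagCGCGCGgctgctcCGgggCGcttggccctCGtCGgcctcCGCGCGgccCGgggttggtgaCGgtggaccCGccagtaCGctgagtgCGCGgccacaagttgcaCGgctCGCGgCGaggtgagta
Tbl1xr1: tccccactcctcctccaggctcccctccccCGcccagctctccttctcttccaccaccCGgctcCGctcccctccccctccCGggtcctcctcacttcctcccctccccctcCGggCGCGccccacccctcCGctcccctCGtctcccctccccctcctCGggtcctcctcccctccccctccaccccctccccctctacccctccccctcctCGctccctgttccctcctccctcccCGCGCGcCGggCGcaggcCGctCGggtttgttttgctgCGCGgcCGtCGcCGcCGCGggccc
The Tbl1x window held 43 CpG and was 75.3% G or C, and the Tbl1xr1 window held 25 CpG and was 76.3% G or C. Over 32851 promoter windows the medians were 7 CpG and 52.7% G or C, and 97.4% and 81.6% of windows held fewer CpG than those of Tbl1x and Tbl1xr1. The nuclear receptor half-site AGGTCA, searched on both strands, was in neither window and in 16.3% of all windows. The E-box CACGTG was also in neither, and in 7.2% of all windows. TGACG, part of the cyclic AMP response element, was in the Tbl1x window once and not in that of Tbl1xr1, and in 20.8% of all windows. The window of Gps2, the member that was not called, held 24 CpG and was 56.7% G or C, and 80.0% of windows held fewer CpG. It also lacked AGGTCA and CACGTG and held TGACG once. These letters describe the windows only.

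Of 8 listed accessory partners of the complex 7 were measured, and 1 was called higher, against 1.54% of all genes. An unadjusted p under 0.05 was found for 2 of the 7 (13.5% of all genes), and groups that did not overlap for 2 (5.11%). The gene called was Cops2, also known as Alien, a corepressor of thyroid hormone receptors and a subunit of the COP9 signalosome. Its log2 level was 10.82, 10.85, 10.83, 10.78 and 10.85 in Hdac3 KO lungs 1 to 5, against 10.62, 10.68, 10.58, 10.56 and 10.67 in control lungs 1 to 5. The groups did not overlap, and the log2 change was 0.20 ± 0.04 (SE; limma, adjusted p = 0.0237). The Cops2 call was lost on leaving out Hdac3 KO 1, 2 or 3 or control 1, 3 or 4 (adjusted p from 0.0521 to 0.0694), and with the sex term (0.0620). It was also lost with numbers 1 to 3 only (limma, adjusted p = 0.115), numbers 4 and 5 only (0.638) and lungs with Y-linked signal only (0.177). Spen, which links RBPJ and nuclear receptors to the corepressors, had a log2 change of 0.12 (adjusted p = 0.188). The median log2 change of the 7 was 0.07, against 0.004 over all genes. The 4 class IIa deacetylases, which depend on bound HDAC3 for most of the activity found with them, had 0 limma calls, 0 unadjusted p values under 0.05 and 0 calls by the plain two-sample test. The log2 change of Hdac5 was 0.11 (adjusted p = 0.451), and that of Hdac7 0.04 (adjusted p = 0.770).

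**Figure D2:**
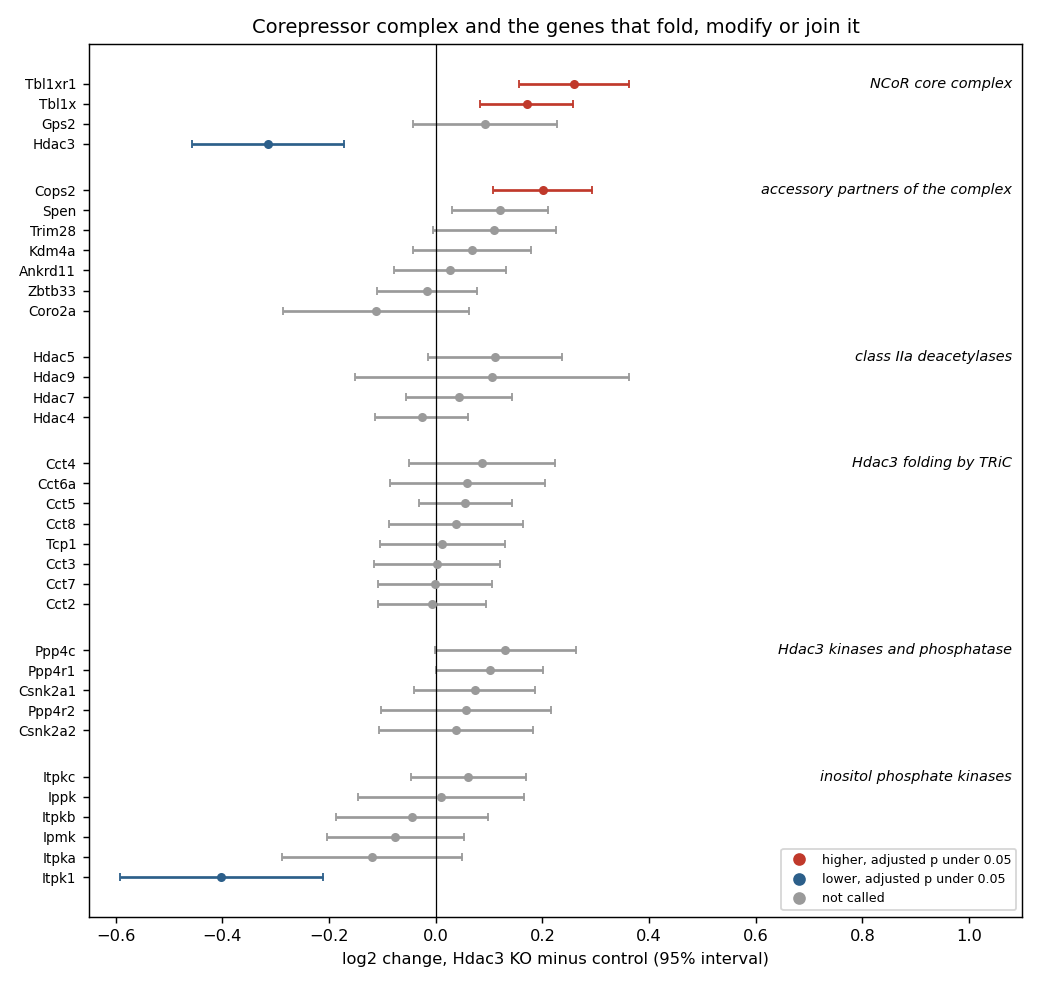
Log2 change between Hdac3 KO and control lungs (horizontal axis, n = 5 each) with its 95% interval for the measured core subunits, accessory partners, class IIa deacetylases and the genes that fold or modify HDAC3, grouped by role; colour marks limma calls at an adjusted p of 0.05. Tbl1xr1, Tbl1x and Cops2 lie to the right and Hdac3 and Itpk1 to the left, while the intervals of the TRiC subunits all include 0.

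Genes that prepare or regulate the HDAC3 protein showed 1 call in 19 measured, against 3.12% of all genes called. The chaperonin TRiC, which folds HDAC3 before it meets its corepressor, had 8 measured subunits, with log2 changes from -0.01 to 0.09. By limma 0 of these were called, with 0 at an unadjusted p under 0.05 and 0 called by the plain test; Cct4 had 0.09 (adjusted p = 0.634) and Cct5 0.06 (0.637). Among 5 measured genes of casein kinase 2, which phosphorylates HDAC3, and of protein phosphatase 4, which removes that phosphate, 0 were called by limma and 0 by the plain test, and 1 had an unadjusted p under 0.05. All 5 changes were above 0, as were 52.0% of those of all genes, and ran from 0.04 to 0.13. The catalytic subunit Ppp4c was at 0.13 (adjusted p = 0.374) and Ppp4r1 at 0.10 (0.363).

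Of 6 inositol phosphate kinases, 1 was called lower, against 1.58% of all genes. Itpk1, which phosphorylates inositol tris- and tetrakisphosphates, had log2 levels of 7.99, 7.89, 8.07, 7.78 and 7.78 in Hdac3 KO lungs 1 to 5, against 8.40, 8.49, 8.40, 8.09 and 8.15 in control lungs 1 to 5. Within each group numbers 4 and 5 were the lowest, and every Hdac3 KO lung lay below every control lung. Itpk1 fell by 0.40 ± 0.09 (SE) on the log2 scale (limma, adjusted p = 0.0261). The call was lost on leaving out Hdac3 KO 2 or 4 or control 1, 2 or 3 (adjusted p from 0.0614 to 0.0735), with the sex term (0.0585) and with the plain test (0.0918). It was also lost with numbers 4 and 5 only (limma, adjusted p = 0.343) and lungs with Y-linked signal only (0.186). The log2 change of Itpka was -0.12 (adjusted p = 0.577), and the median of the list was -0.06. Of 6 measured genes for ubiquitination of the corepressors, among them the ligase Siah1a (0.14, adjusted p = 0.509) and the conjugating enzyme Ube2d2a (0.05, adjusted p = 0.751), 0 were called by limma, 0 by the plain test and 0 had an unadjusted p under 0.05.

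Among 17 measured nuclear receptors that recruit the complex, 0 rose and 2 fell (1.54% and 1.58% of all genes). Of the 17 changes, 13 were below 0 (median -0.03), against 48.0% of all genes. An unadjusted p under 0.05 was found for 5 of the 17, against 13.5% of all genes. The plain test called 1 (2.13% of all genes), and the groups did not overlap for 4 (5.11%). Nr1d2, the Rev-erb beta repressor that holds NCoR and HDAC3 at clock genes, had log2 levels of 7.53, 7.61, 7.62, 7.61 and 7.53 in Hdac3 KO lungs 1 to 5, against 7.83, 7.93, 7.83, 7.81 and 7.73 in control lungs 1 to 5. The groups did not overlap. Nr1d2 fell by 0.25 ± 0.05 (SE) on the log2 scale (limma, adjusted p = 0.0149), and leaving out any 1 lung kept it called (adjusted p from 0.0140 to 0.0420). The Nr1d2 call was lost with numbers 1 to 3 only (limma, adjusted p = 0.0550), numbers 4 and 5 only (0.622) and lungs with Y-linked signal only (0.169). Nr1d1, the related repressor Rev-erb alpha, was picked after its values were seen. Its log2 change was -0.18 ± 0.06 (SE; limma, unadjusted p = 0.0131, adjusted p = 0.185; replicate block, 0.0763), with every Hdac3 KO lung below every control lung. Vdr, the vitamin D receptor, fell by 0.27 ± 0.06 (SE; limma, adjusted p = 0.0232). Its log2 level was 7.54, 7.67, 7.67, 7.54 and 7.63 in Hdac3 KO lungs 1 to 5, against 7.82, 8.05, 7.80, 7.92 and 7.83 in control lungs 1 to 5. The Vdr groups did not overlap, and the call was lost without Hdac3 KO 1 or 4 or control 4 (adjusted p from 0.0578 to 0.0617) and with the plain test (0.0501). The Vdr call was also lost with numbers 1 to 3 only (limma, adjusted p = 0.173), numbers 4 and 5 only (0.467) and lungs with Y-linked signal only (0.137). Of 8 recruiting factors of other families limma called 0 and the plain test 0, and 0 had an unadjusted p under 0.05. Bcl6, a repressor that binds NCoR, had a log2 change of -0.30 (limma, adjusted p = 0.374; replicate block, 0.0470), and Runx1 of -0.13 (adjusted p = 0.456).

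**Figure D3:**
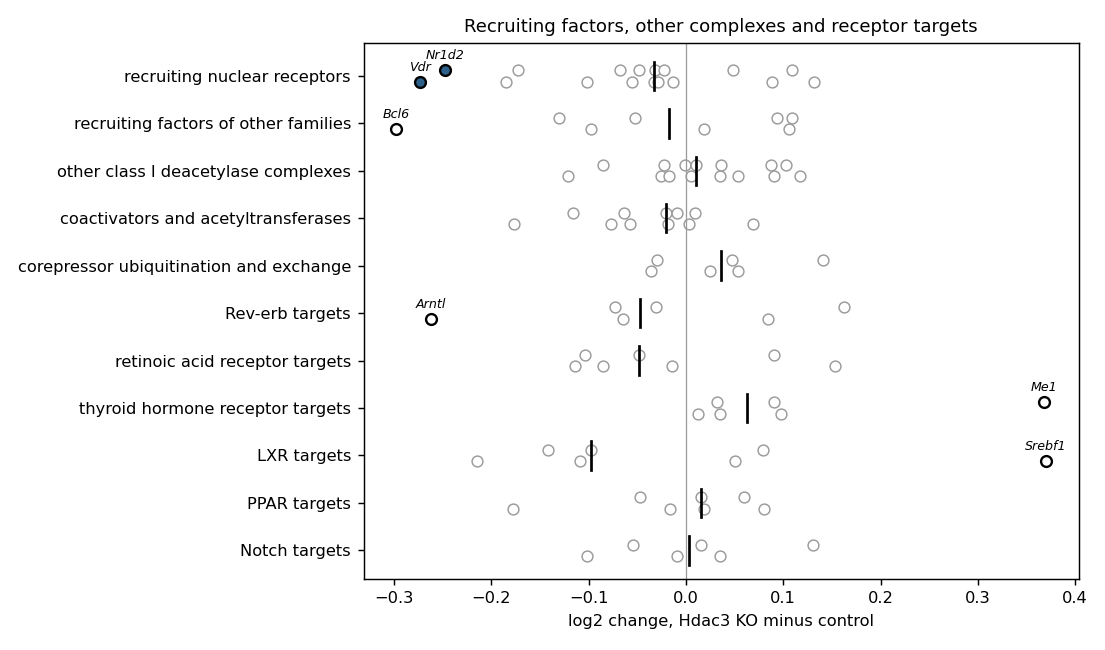
Log2 change between Hdac3 KO and control lungs (horizontal axis, n = 5 each) for every measured gene of the lists of recruiting factors, related complexes and receptor targets (1 circle a gene, with small vertical offsets for legibility); filled circles are limma calls at an adjusted p of 0.05, dark outlines mark an adjusted p under 0.05 with the replicate block, and the vertical bar is the list's median. Vdr and Nr1d2 are the filled circles, and Bcl6, Arntl, Me1 and Srebf1 carry the dark outline alone.

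Other class I deacetylase complexes were measured in 15 genes (SIN3, NuRD and CoREST subunits with Hdac1, Hdac2 and Hdac8), of which 0 were called by limma, 1 had an unadjusted p under 0.05 and 1 was called by the plain test. That gene was Hdac8, with a log2 change of -0.09 (limma, adjusted p = 0.360; plain test, adjusted p = 0.0317); Rbbp7, a histone-binding subunit, had 0.12 (limma, adjusted p = 0.431). The median of the list was 0.01. Of 11 coactivators and acetyltransferases, the counterparts that replace the corepressor when ligand binds, 0 were called by limma, 0 by the plain test and 1 had an unadjusted p under 0.05. Ncoa1, the steroid receptor coactivator SRC-1, showed a log2 change of -0.18 (adjusted p = 0.0725), and Kat2b one of -0.12 (adjusted p = 0.387).

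Genes known elsewhere as targets of receptors that recruit the complex gave 0 calls by limma in 6 lists. Of 6 Rev-erb targets, 1 had an unadjusted p under 0.05 and 0 were called by the plain test. This was Arntl, the clock activator BMAL1, whose log2 level was 8.59, 8.80, 8.75, 8.83 and 8.59 in Hdac3 KO lungs 1 to 5, against 8.92, 8.87, 8.96, 9.11 and 9.01 in control lungs 1 to 5. The groups did not overlap, with a log2 change of -0.26 ± 0.07 (SE; limma, adjusted p = 0.0519; replicate block, 0.0405); Clock had -0.06 (adjusted p = 0.641). Of 7 retinoic acid receptor targets 0 had an unadjusted p under 0.05 and 0 were called by the plain test, with the retinoic acid hydroxylases Cyp26a1 at 0.15 (adjusted p = 0.500) and Cyp26b1 at -0.10 (0.608). Cyp26a1 had both means under 6.30, the 20th percentile of gene values.

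All 6 thyroid hormone receptor targets had changes above 0 (52.0% of all genes did), from 0.01 to 0.37, of which 1 had an unadjusted p under 0.05 and 0 were called by the plain test. Me1, cytosolic malic enzyme, had a log2 change of 0.37 (limma, adjusted p = 0.161; replicate block, 0.0396), and Hr, itself a corepressor, of 0.09 (0.547). Of 7 LXR targets 2 had an unadjusted p under 0.05 and 0 were called by the plain test. Srebf1, the regulator of fatty acid synthesis, had a log2 change of 0.37 (limma, adjusted p = 0.332; replicate block, 0.0282), and the sterol exporter gene Abcg1 had -0.21 (0.325). Of 7 PPAR targets and 6 Notch targets 0 and 0 had an unadjusted p under 0.05, and 0 and 0 were called by the plain test. Cidec, a lipid droplet protein gene, showed a log2 change of -0.18 (adjusted p = 0.411), and Cidea, with both means under 6.30, one of -0.05 (0.836). The Notch targets Hes5 and Nrarp had -0.10 (adjusted p = 0.543) and 0.13 (0.634). Hes5 lay near 6.30, with means of 6.21 in Hdac3 KO lungs and 6.32 in control lungs.

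The makeup of the lungs was read from marker lists beside the Hdac3 values. Of 20 epithelial markers 1 rose and 1 fell (1.54% and 1.58% of all genes). A fit with the replicate block called 1 higher and 2 lower, where 4.72% of all genes were called. An unadjusted p under 0.05 was found for 7 of the 20, against 13.5% of all genes. The plain test called 3 (2.13% of all genes), and the groups did not overlap for 4 (5.11%). Krt8, a keratin of simple epithelium, rose by 0.74 ± 0.06 (SE; limma, adjusted p = 1.75e-05), and Ehf, an epithelial ETS factor, fell by 0.44 ± 0.07 (adjusted p = 0.00496). The Ehf call was lost with numbers 1 to 3 only (limma, adjusted p = 0.0698), numbers 4 and 5 only (0.334) and lungs with Y-linked signal only (0.0885). The Krt8 call was lost with numbers 4 and 5 only (limma, adjusted p = 0.106). Sox2, a factor of the conducting airways picked after its values were seen, averaged 7.19 ± 0.35 in Hdac3 KO lungs and 7.83 ± 0.25 in control lungs (SD, n = 5 each). Its log2 change was -0.64 ± 0.16 (SE; limma, adjusted p = 0.0553; replicate block, 0.00936), and the groups did not overlap. The mean log2 level over the 20 markers was 10.05 to 10.17 in Hdac3 KO lungs and 10.04 to 10.11 in control lungs, so the ranges overlapped. Lists of 8 fibroblast and 8 endothelial markers had 0 limma calls, 0 unadjusted p values under 0.05 and 0 calls by the plain test. In these, Wnt2 had a log2 change of -0.17 (adjusted p = 0.389), Col3a1 of -0.09 (0.520), Cdh5 of -0.09 (0.482) and Tie1 of 0.06 (0.685). Of 7 leukocyte markers 0 were called by limma or by the plain test, and 2 had an unadjusted p under 0.05 (13.5% of all genes). For 6 of the 7 markers the change was below 0, against 48.0% of all genes. Their mean log2 level was 8.05 to 8.32 in Hdac3 KO lungs and 8.29 to 8.43 in control lungs. Laptm5 had a log2 change of -0.27 (limma, adjusted p = 0.0890; replicate block, 0.0227) and Itgam of 0.12 (0.338). Of 3 measured erythroid markers 0 were called by limma or by the plain test and 0 had an unadjusted p under 0.05, with Slc4a1 at 0.22 (limma, adjusted p = 0.464; replicate block, 0.0461) and Epb42 at 0.02 (0.965). The part of these markers in the Hdac3 change was not tested.

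Of the 5 genes on each side of Hdac3 in the gene table's order, 3 of the 10 were measured. By limma 0 were called, with 0 at an unadjusted p under 0.05 and 0 by the plain test.

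The genes most like Hdac3 across the 10 lungs were found by the root mean square difference between log2 values centred on each gene's mean, among 9451 named genes whose SD was at least that of Hdac3 divided by 2. They were Rprm, the G2 arrest gene reprimo (0.057 log2 units), Pla2g4f, a cytosolic phospholipase A2 (0.062), and Ctss, the cathepsin of macrophages and antigen-presenting cells (0.065). Their log2 changes were -0.35, -0.29 and -0.28 (limma, adjusted p = 0.00430, 0.00557 and 0.00930), and they were picked for this likeness. Nearest to Tbl1x were Ctnnb1, the gene of beta-catenin (0.034), Ndufaf8 (0.035) and Rai14 (0.036), with log2 changes of 0.14, 0.13 and 0.19. Nearest to Tbl1xr1 were Rad23b (0.040), Akap13 (0.050) and Esrp2, an epithelial splicing regulator (0.052), with log2 changes of 0.22, 0.21 and 0.20. Of these last 6 genes only Rai14 was called (limma, adjusted p = 0.0407), and not with the replicate block (0.0617). The measure includes the difference between the groups, so it gives no independent support to any change.

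**Figure D4:**
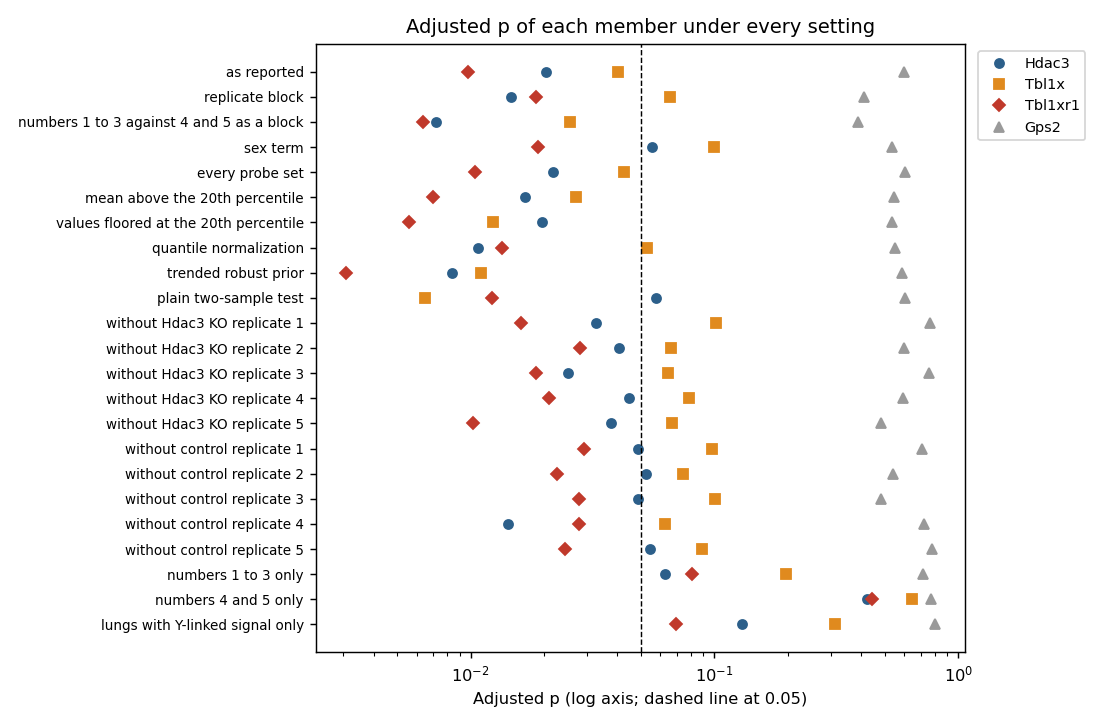
Adjusted p of each measured member (horizontal log axis) in the reported fit and under 22 other settings (rows), with a dashed line at 0.05. Tbl1xr1 stays left of the line in 19 of the 22 settings, Hdac3 in 15 and Tbl1x in 6, and Gps2 lies right of it in all 22.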

How the data were processed

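Log2 levels of 24888 probe sets, as deposited by the authors, were used for 5 Hdac3 KO and 5 control lungs, with 1 Affymetrix array a lung. The authors used RMA, oligo and limma, per the submitters' processing notes; the sources used here give no versions, genome build or filter on rows. Total RNA (100 ng) was primed with poly(T) and amplified linearly, per the labels' protocols. Scanner files were not used here. Precision is limited by having 5 lungs a group.

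The platform annotation named 18922 probe sets with 1 symbol and 1343 with several, and left 4623 unnamed. The probe set with the highest mean stood for each gene (17919 genes). Groups were taken from the sample titles. They were compared with limma 3.58.1 in R 4.3.3 (lmFit, eBayes, two-sided, no covariates, Benjamini-Hochberg over all genes, threshold 0.05). On simulated data this fit recovered 53 of 100 changes of 0.3 log2 units and 97 of 100 changes of 1.0, with 7 false calls. Single members also had an exact permutation test over 252 assignments (scipy 1.17.1). The plain two-sample test uses each gene's own variance. Promoter windows come from RefSeq (GRCm38.p6). Gene order and overlaps come from a RefSeq gene table, in which all 4 measured members were found by symbol.

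Members, lists, alternatives and naming rule were chosen with earlier results of these data known. The rule named the members, up to 4 called genes a list (the 2 with the smallest p where fewer than 2 were called) and 3 genes most like each of Hdac3, Tbl1x and Tbl1xr1. Sox2 and Nr1d1 were added after their values were seen. Alternatives were the replicate block, a block for numbers 1 to 3 against 4 and 5, a sex term, every probe set, a filter and a floor at the 20th percentile, quantile normalization, a trended robust prior, the plain test, leaving out each lung, and subsets of lungs.

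Both groups carry numbers 1 to 5. Deviations of same-numbered lungs from their group means correlated at 0.319, 0.154, 0.183, 0.485 and 0.360. Without the sex-linked genes they correlated at 0.141, 0.131, 0.153, 0.476 and 0.393. Lungs with different numbers correlated at up to 0.330 (0.415 without the sex-linked genes), above some same-numbered values, with a median of -0.0829 (-0.141). The best match had the same number for 7 (5) of the 10 lungs. These values do not settle whether a number pairs the lungs, and the labels do not say what a number shares. The reported fit therefore does not use the numbers, and the replicate block is given as an alternative.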

Additional observations from a re-analysis of the deposited data

Results flagged for a closer look

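Of 122 groups of 5 lungs examined (61 genes, named or sex-linked), 10 held a flagged lung, where chance flags about 1 group in 20. A lung was flagged when its gap to its nearest neighbour, divided by the group's range, passed Dixon's 95% critical value for 5 samples. Among the members, Tbl1x in control 4 stood at 10.53, above the other 4 controls and below every Hdac3 KO lung. The sex-linked genes gave 5 of the 10: Xist was 11.47 in Hdac3 KO 1 and 11.21 in control 1, and in control 1 Kdm5d was 5.01, Eif2s3y 4.75 and Uty 4.39. Esrp2 was 10.17 in Hdac3 KO 5, above the other Hdac3 KO lungs, and Rbbp7 was 11.05 in Hdac3 KO 4, below them. Itgam was 7.14 in control 5, below the other controls, and Tie1 was 9.88 in control 2, above them.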

How the results depend on the processing

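All 4 members kept their direction under each of the 22 alternatives, and Gps2 was called under none of them. The Hdac3 call was lost with the sex term (log2 change -0.30, adjusted p = 0.0556), the plain two-sample test (-0.31, 0.0575), numbers 1 to 3 only (-0.26, 0.0629), numbers 4 and 5 only (-0.40, 0.421) and the lungs with Y-linked signal only, a setting chosen after seeing the data (-0.32, 0.130). Without 1 lung at a time its change ran from -0.35 to -0.28. Tbl1x was not called with the replicate block (0.17, adjusted p = 0.0655), the sex term (0.16, 0.0997), quantile normalization (0.16, 0.0530), numbers 1 to 3 only (0.17, 0.197), numbers 4 and 5 only (0.18, 0.646), lungs with Y-linked signal only (0.14, 0.311) or without any 1 lung (0.16 to 0.18). Tbl1xr1 was not called with numbers 1 to 3 only (0.22, 0.0807), numbers 4 and 5 only (0.32, 0.444) or lungs with Y-linked signal only (0.23, 0.0697); without 1 lung it ran from 0.22 to 0.27. The last 3 settings use fewer lungs; the cause of the other losses was not tested. Of all genes, 846 were called with the replicate block, 910 with numbers 1 to 3 against 4 and 5 as a block, 2 with numbers 4 and 5 only and 319 with the lungs with Y-linked signal only, against 559 as reported; without 1 lung the count ran from 393 to 699. Among the other named genes, counted over genes and settings, a call was lost 54 times and gained 44 times. Those that changed sign were never called: Cidea with numbers 1 to 3 only (0.0445, adjusted p = 0.872), and Epb42 with the sex term (-0.00733), with numbers 4 and 5 only (-0.0129) and without 1 lung (from -0.0412 to 0.0789). Beside the calls given with the results, the replicate block changed no call of a member. The exact test cannot give a p under 0.0079 with 5 against 5 lungs, and the median standard error of 0.066 limits what log2 changes can be seen.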
